A study of Caenorhabditis elegans with 2 samples.

Results

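The genes described here encode CDC-48, its cofactors UFD-1, UFD-2 and UFD-3, and NPL-4, in Caenorhabditis elegans. They are cdc-48.1, cdc-48.2, ufd-1, ufd-2, ufd-3, npl-4.1 and npl-4.2, which are 7 of the 19973 protein-coding genes on the nuclear chromosomes. All 7 were found by name in the Ensembl gene models of WBcel235, each as 1 gene. The names were put together because of cdc-48.1, which was chosen by the measured signal of its peak, 1 of the 5 strongest of the experiment. That strength is therefore given as a description.

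CDC-48, called p97 or VCP in humans, is a ring-shaped AAA ATPase that pulls ubiquitin-marked proteins out of complexes, membranes and chromatin. UFD-1 and NPL-4 form the adaptor that brings ubiquitin chains to the ring. UFD-2 is a ubiquitin ligase that lengthens such chains, and UFD-3, called PLAA in humans, binds both CDC-48 and ubiquitin. In the worm the segregase is known for its work in degradation of proteins from the endoplasmic reticulum, in mitosis and in removal of the replicative helicase from DNA.

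MEP-1, a zinc finger protein known for repressing germline genes in somatic cells together with the chromatin remodeler LET-418, was immunoprecipitated through a green fluorescent protein tag from whole L1 larvae of both sexes. All animals were of the strain OP102, which carries the unc-119(tm4063) mutation on III and the insertion wgIs102 targeting mep-1. There was 1 group with 2 biological replicates and no second condition, so each comparison is between replicates, between genes of the set, or between the set and all genes. Whole animals were used, so the values are averages over all tissues. The authors' calling used a control, per the deposited file lists, but a control library was not used here.

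The data are peak lists. An optimal list of 4904 peaks, which passed the authors' reproducibility step, a relaxed list of 30000 peaks from both replicates pooled, and relaxed lists of 30000 and 29149 peaks from replicates 1 and 2 were used. The signal of a peak is the authors' value and serves to describe and rank peaks within a list. The optimal peaks of the 3 genes that have one carry the same signal and rank in the pooled list, which reaches lower (median 82.5 in the optimal list and 18.3 in the pooled list). The replicate lists have scales of their own (median 14.5 in replicate 1 and 6.10 in replicate 2). Depth is unknown, as none of the lists carries read counts. The relaxed lists reach far down, and a summit of the pooled list fell in the promoter window of 42.3% of all protein-coding genes. A promoter window here is the stretch from 1000 bp before to 200 bp after any 5' end that a coding transcript of the gene has in the annotation. Many worm messages are trans-spliced, so an annotated 5' end often marks the splice junction and not the start of transcription. Coordinates are those of ce11 (WBcel235), counted from 1.

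The sequences under the peaks are given first, so that the short words described further on can be read in place. The optimal peaks of cdc-48.1, ufd-3 and ufd-2 are printed whole, with 50 bp to each side of both pooled summits of cdc-48.2. The last line is the stretch before the 5' end that npl-4.1 and npl-4.2 share letter for letter. All are on II, from the RefSeq assembly of WBcel235, and read 5' to 3' along the strand of the gene. Capitals mark 5 words of 6 bases, found on either strand, that had been ranked on these same peaks in earlier work and that partly overlap each other. The first word is GACGCA. The second, ACGCAG, is that word moved on by a base. The others are CGTCTC, then GAGCGC, and the word ACGCGC.
cdc-48.1 peak, chrII:10563422-10563714, minus strand: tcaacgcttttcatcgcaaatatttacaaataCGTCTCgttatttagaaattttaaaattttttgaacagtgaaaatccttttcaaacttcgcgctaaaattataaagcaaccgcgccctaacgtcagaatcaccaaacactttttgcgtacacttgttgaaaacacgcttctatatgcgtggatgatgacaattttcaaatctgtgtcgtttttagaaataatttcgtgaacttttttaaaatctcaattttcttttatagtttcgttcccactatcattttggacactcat
ufd-3 peak, chrII:9940500-9940748, plus strand: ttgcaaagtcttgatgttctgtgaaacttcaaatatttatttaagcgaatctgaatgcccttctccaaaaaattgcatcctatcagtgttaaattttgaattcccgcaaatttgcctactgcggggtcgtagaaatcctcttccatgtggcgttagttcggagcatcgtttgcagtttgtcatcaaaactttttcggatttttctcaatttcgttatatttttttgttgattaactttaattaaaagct
ufd-2 peak, chrII:8062342-8062515, plus strand: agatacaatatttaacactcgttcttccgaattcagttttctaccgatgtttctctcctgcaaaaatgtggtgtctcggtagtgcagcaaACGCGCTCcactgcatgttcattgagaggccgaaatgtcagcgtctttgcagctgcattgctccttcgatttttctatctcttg
cdc-48.2 farther pooled summit, chrII:8137648-8137748, plus strand: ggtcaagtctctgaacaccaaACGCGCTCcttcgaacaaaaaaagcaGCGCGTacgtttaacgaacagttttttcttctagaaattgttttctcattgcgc
cdc-48.2 nearer pooled summit, chrII:8138154-8138254, plus strand: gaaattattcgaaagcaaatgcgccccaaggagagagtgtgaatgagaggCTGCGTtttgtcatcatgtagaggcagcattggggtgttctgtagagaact
npl-4.1 and npl-4.2, chrII:5631201-5631350 and chrII:5622739-5622888, plus strand: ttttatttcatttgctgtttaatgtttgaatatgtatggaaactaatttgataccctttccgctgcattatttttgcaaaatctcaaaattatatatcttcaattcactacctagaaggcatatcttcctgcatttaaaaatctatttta

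Of the 7 genes, 3 had an optimal summit in the promoter window, against 17.5% of all protein-coding genes. These were cdc-48.1, ufd-2 and ufd-3, and each was also among the higher-signal 50% of the optimal list, where 11.4% of all genes had a summit. At these 3 summits no other coding gene had a nearer 5' end. A pooled summit was found in the windows of 5 of the 7, all but npl-4.1 and npl-4.2, against 42.3% of all genes. Replicates 1 and 2 each had a summit in the windows of the same 5 genes, against 43.3% and 45.2% of all genes. So 5 of the 7 had one in both replicates, against 32.9% of all genes. At cdc-48.2 these replicate summits lay at different places in the window. Since cdc-48.1 entered the set for its peak, and since the set is small, these counts are descriptions. On II, where 6 of the 7 genes lie, the optimal list had a summit in the windows of 16.4% of 3449 genes.

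Calls in the gene bodies were counted in the same way, and with 7 genes these counts too are descriptions. Outside the promoter windows, an optimal summit lay within 0 of the 7 genes, against 3.35% of all genes. A pooled summit lay within 1, cdc-48.2, against 28.1% of all genes, and the same gene was the 1 with such a summit in replicate 1 (28.9% of all genes) and in replicate 2 (30.5%). The body of cdc-48.1, which holds the snoRNA genes C06A1.8 and C06A1.9 inside its span, had no summit in any list.

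**Figure D1:**
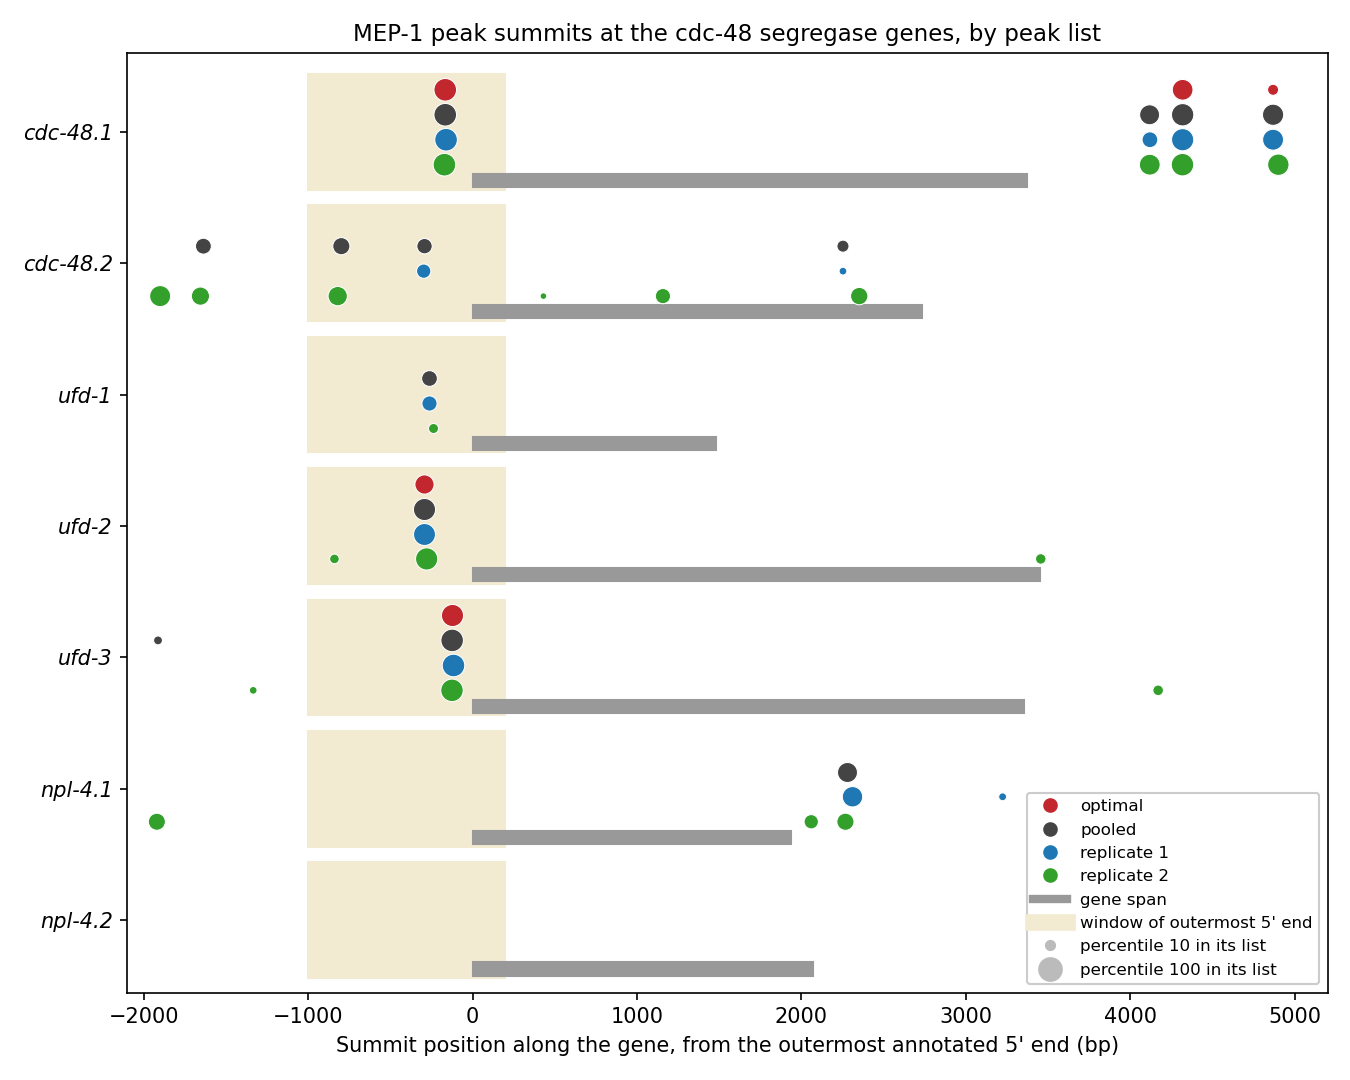
Summits of the 4 peak lists at the 7 genes, by position along the gene in bp from the outermost annotated 5' end (negative is upstream), within 2000 bp of each gene. Rows from top to bottom within a gene are the optimal, pooled, replicate 1 and replicate 2 lists, point size grows with the percentile of signal within the list, grey bars are gene spans and the shaded band is the window of the outermost 5' end. Optimal summits in the band are seen at cdc-48.1, ufd-2 and ufd-3, and no point of any list stands at npl-4.2.

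The strongest member is the gene of the ATPase itself. cdc-48.1 (WBGene00007352, II 10560036 to 10563407, minus strand) had a peak at II 10563422 to 10563714, between genes, and the summit stood 166 bp in front of the annotated 5' end. Its signal was 795 in the optimal list, which is 9.63 times the list median, and its rank was 5 of 4904. In replicate 1 the signal was 563 and the rank 4, and in replicate 2 the signal was 232 and the rank 4. Both replicates thus placed this peak at the same rank, with summits 10 bp apart. Just outside the limit of 5 peaks that the choice of the gene used, the peak ranked 6 had a signal of 746, and just above cdc-48.1 the peak at ekl-4 had 797. Among the 3491 genes with an optimal promoter peak, cdc-48.1 was placed 6. By the ranks of promoter peaks in the 2 replicates, the genes most like it among 3459 were Y17G9B.5 (ranks 3 and 3), ekl-4 (ranks 5 and 2) and rpl-3 (ranks 2 and 6), with log10 rank distances of 0.18, 0.32 and 0.35. The peaks of Y17G9B.5 and ekl-4 also lie in the windows of rpl-20 and rps-20, which therefore have the same ranks and distances.

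Beyond the other end of cdc-48.1 lay further peaks. An optimal peak at II 10558903 to 10559177 had its summit 948 bp past the 3' end, with a signal of 165 and rank 866, and ranked 1248 in replicate 1 and 464 in replicate 2. A weaker optimal peak at II 10558363 to 10558712 was 1498 bp past the 3' end (signal 54.7, rank 4015). Both are outside the promoter window of any coding gene. The nearest 5' end of a protein-coding gene was that of mnk-1, 4044 and 3494 bp away, and the nearest of any annotated gene was that of the non-coding RNA gene R166.11, 1444 and 894 bp away.

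The second ATPase gene differed from the first. cdc-48.2 (WBGene00008053, II 8138496 to 8141230, plus strand) had no optimal summit in its window, and its 2 pooled summits there were near the middle of the relaxed list. The one 798 bp upstream had a signal of 19.4 and rank 13647 of 30000, and it lay nearer to ctns-1, whose divergent 5' end was 780 bp away. The one 292 bp upstream had a signal of 16.6 and rank 17293. Within the pooled list, whose median was 18.3, the cdc-48.1 signal was 40.9 times that of the stronger of these. As cdc-48.1 was chosen for the strength of its peak, this ratio is a description. In the promoter window the replicates did not place a call at the same spot. Replicate 1 had the nearer summit alone, 297 bp upstream (rank 19331), and replicate 2 had the farther one alone, 820 bp upstream (rank 8493). Inside the coding sequence, a pooled summit 2253 bp from the 5' end ranked 23017, with a replicate 1 call at rank 28391. Replicate 2 had 3 calls in the coding sequence, at ranks 12862, 17126 and 28599, of which the one ranked 12862 overlapped the replicate 1 call. The optimal peak closest to cdc-48.2, at II 8143458 to 8143593 (signal 123, rank 1363), was 6 bp upstream of the Integrator gene ints-11, 2254 bp past the 3' end of cdc-48.2. The coding sequences of cdc-48.1 and cdc-48.2 were identical at 76.6% of aligned bases without gaps. Their upstream 1000 bp were identical at 59.2%, while those of ufd-2 and ufd-3, which are not copies of each other, were identical at 61.6%.

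The adaptor genes had no optimal peak. At ufd-1 (WBGene00006733, IV 12329408 to 12330890, minus strand) the pooled summit 265 bp upstream had a signal of 17.1 and rank 16569. Replicate 1 ranked it 17674 with a signal of 13.1, and replicate 2 ranked its call there 25090 with a signal of 3.96, so the summit is in the lower part of both relaxed lists. The summit lies in the annotated 3' UTR of F19B6.1, the gene on the same strand that ends 85 bp before ufd-1. The nearest optimal peak, at IV 12334715 to 12335064 (signal 55.4, rank 3965), was 4000 bp upstream, in an intron of F19B6.1 and 290 bp upstream of an internal 5' end of that gene.

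Neither npl-4.1 (WBGene00019120, II 5631351 to 5633284) nor npl-4.2 (WBGene00019121, II 5622889 to 5624959) had a summit of any list in its promoter window or gene body, as was the case for 32.1% of all protein-coding genes. Past the 3' end of npl-4.1 a pooled summit at 342 bp had a signal of 32.4 and rank 7096, with replicate calls ranked 6051 and 13307. At npl-4.2 the pooled summit nearest to the 5' end was 8945 bp upstream, and the replicate 2 call nearest to it was 3380 bp upstream. Measured from the ends of the gene spans, the nearest optimal peaks lay 16342 bp from npl-4.1 and 17248 bp from npl-4.2.

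These genes are copies of each other, 8462 bp apart. Their coding sequences were identical at 99.5% of bases, and the 1325 bp before the 5' end were the same in both without a single difference. Of the words of 31 bases in their promoter windows, 97.4% occurred more than once in the nuclear genome, and in the gene spans 86.7% (npl-4.1) and 84.7% (npl-4.2) did. The share was 10.3% in the window of cdc-48.1 and 0% in those of cdc-48.2, ufd-1, ufd-2 and ufd-3, and within the optimal peaks of cdc-48.1, ufd-2 and ufd-3 it was 0%. Windows as repeated as those of npl-4.1 and npl-4.2 rarely carry a call anywhere in these lists. Among 257 genes with 90% or more of the words repeated, 2 had a pooled summit in the window (0.778%) and 0 had an optimal one, while among 19314 genes with under 50% repeated, 43.5% had a pooled and 18.0% an optimal summit. How the authors treated reads that match several places is not given in the sources used here, and the part of repetition in the empty windows of npl-4.1 and npl-4.2 was not tested.

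**Figure D2:**
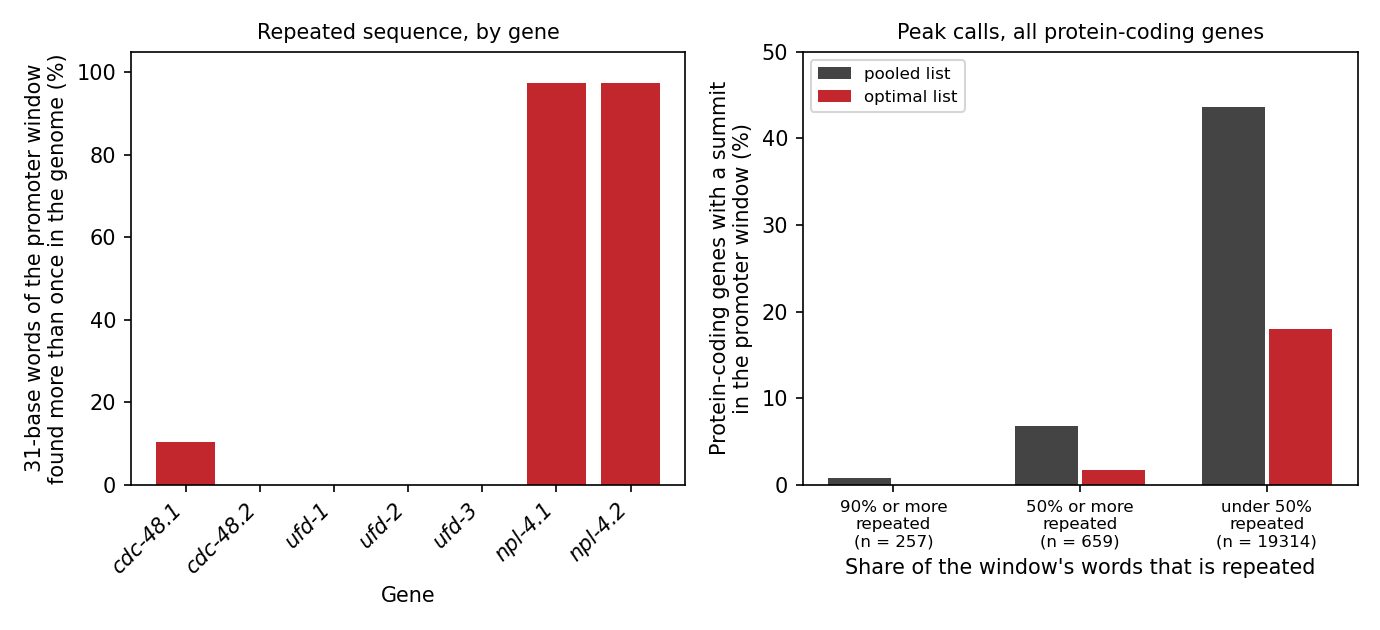
Left, the percentage of 31-base words in the promoter window of each of the 7 genes that occur more than once in the genome, with bars from 0 and npl-4.1 and npl-4.2 at 97.4%. Right, the percentage of protein-coding genes with a pooled or optimal summit in the window, by the share of the window's words that is repeated (the 257 genes at 90% or more are part of the 50% or more class). The pooled share is 0.778% at 90% or more and 43.5% under 50%.

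The other cofactor genes with a peak were those of the chain-lengthening ligase and of the PLAA homologue. ufd-3 (WBGene00007333, II 9940753 to 9944107, plus strand) had the second strongest peak of the set, at II 9940500 to 9940748, in the 320 bp between C05C10.5 and ufd-3. Its signal was 280.1 and its rank 241 in the optimal list, with a signal of 199 and rank 224 in replicate 1, and of 79.0 and rank 339 in replicate 2. Its summit stood 124 bp before the 5' end, and the replicate summits were 8 bp apart. ufd-2 (WBGene00006734, II 8062741 to 8066193, plus strand) had a peak at II 8062342 to 8062515, with a signal of 117 and rank 1469. In replicate 1 it had a signal of 69.2 and rank 1892, and in replicate 2 a signal of 46.5 and rank 1109, with the summits 14 bp apart and the optimal one 293 bp upstream. The median signal over all genes with an optimal promoter peak was 106, so ufd-2 was near the middle of such genes (place 1493 of 3491) and ufd-3 in the upper part (place 283). A further call of replicate 2 alone, 840 bp upstream of ufd-2, ranked 25594.

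The replicates ordered the 3 optimal peaks alike, with cdc-48.1 first, ufd-3 next and ufd-2 last in each. Optimal peaks had passed the authors' reproducibility step and cdc-48.1 was chosen for its strength, so this order is a description. The larger rank was 1.51 times the smaller at ufd-3 and 1.71 times at ufd-2. Over the 4861 optimal peaks with an overlapping call in both replicates the median of this ratio was 1.42, and the median distance between replicate summits was 22 bp. With 2 replicates no test of a difference between genes was made.

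**Figure D3:**
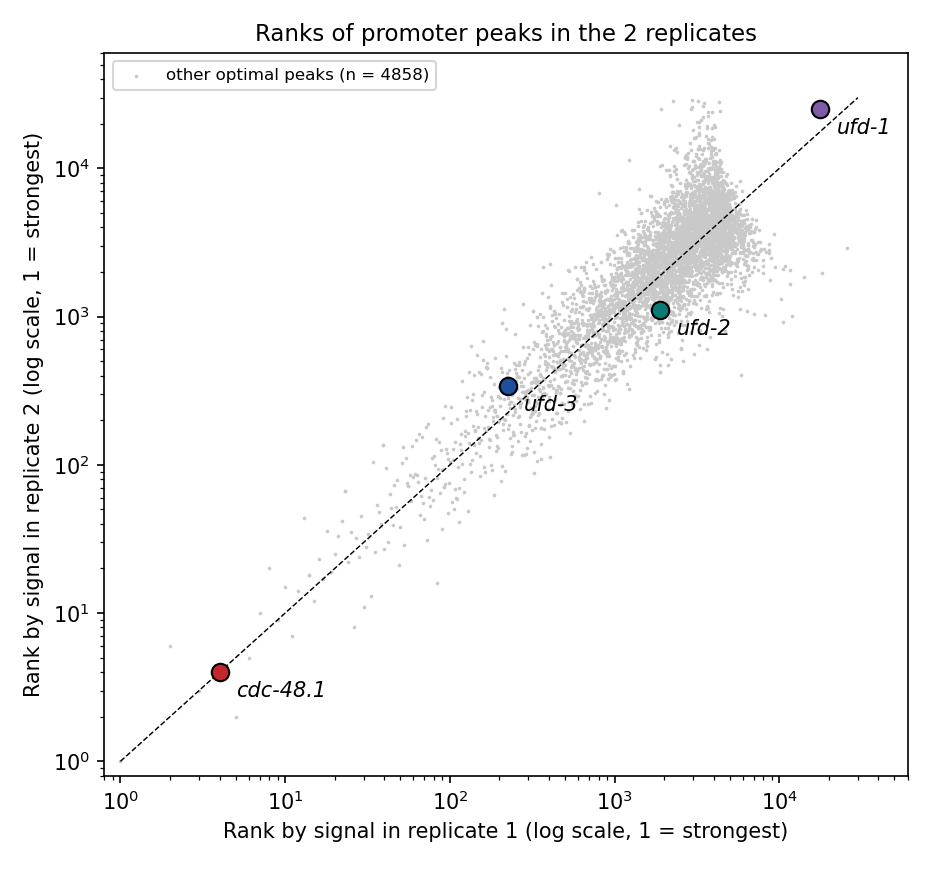
Rank by signal in replicate 1 (x axis) against replicate 2 (y axis), both on log scales with 1 as the strongest, for optimal peaks matched in both replicates (grey) and for the promoter calls of cdc-48.1, ufd-3, ufd-2 and ufd-1 (coloured). The dashed line marks equal ranks. cdc-48.1 lies at 4 and 4, ufd-3 at 224 and 339, ufd-2 at 1892 and 1109, and ufd-1, which is in the pooled but not the optimal list, at 17674 and 25090.

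The distances of the 3 peaks to a 5' end lay to both sides of the median of 186 bp. All 3 peaks were narrower than the median optimal peak of 350 bp. That width is also the median of the pooled and replicate 1 lists, and the pooled calls of cdc-48.2 and ufd-1 have exactly it. The optimal peaks were 293 bp wide at cdc-48.1, 249 bp at ufd-3 and 174 bp at ufd-2. Of all optimal peaks, 31.0%, 27.6% and 15.2% were as narrow or narrower. Of 2813 optimal promoter summits, 45.04% were as near or nearer to a 5' end as that of cdc-48.1, with 31.2% for ufd-3 and 69.1% for ufd-2. GC content within 50 bp of the summit was 42.6% at cdc-48.1, 44.6% at ufd-3 and 52.5% at ufd-2, where the mean over optimal summits was 44.6%. In flanks 300 bp away it was 41.6%, 38.6% and 33.2% at the same 3 genes. Against flanks at that distance the rise was thus small at cdc-48.1, the strongest peak, and large at ufd-2, the weakest of the 3. Closer in, the contrast was not seen. In short bins centred at -113 and 112 bp from the summit, GC content was 28% and 20% at cdc-48.1. The same bins had 32% and 16% at ufd-3, and 24% and 24% at ufd-2.

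Within 50 bp of the cdc-48.1 and ufd-3 summits none of the 5 words was found, and with 100 bp to each side there was still none. The nearest, CGTCTC, was 104 bp from the cdc-48.1 summit. Over all optimal summits, 40.5% had 1 or more of the 5 words within 50 bp, against 8.004% of flanks. In the strongest 10% of the list, to which cdc-48.1 and ufd-3 belong, 60.2% had one and 195 of 490 had none, while in the weakest 10% of the list 22.7% had one. Among the 20 strongest peaks 9 had none within 50 bp. As the words had been ranked on these same peaks, the shares at summits and flanks are descriptions. In windows of 1201 bp at all genes the shares with each word were 24.99% for GACGCA, 23.9% for ACGCAG, 31.3% for CGTCTC, 16.8% for GAGCGC and 15.8% for ACGCGC.

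At 3 summits of the set GAGCGC and ACGCGC were joined. At ufd-2, 9 bp from the summit, ACGCGC overlapped the reverse complement of GAGCGC to give ACGCGCTC. The same 8 bases, on either strand, lay 22 bp from the farther pooled summit of cdc-48.2, which is nearer to ctns-1, and 12 bp from the pooled summit of ufd-1. So 3 of the 7 windows held them, namely those of cdc-48.2, ufd-1 and ufd-2, and they were not in the other four. This joined word was picked after the sequences of these genes were seen, so the count is a description. It was present in 2.01% of the promoter windows of all genes. It was within 50 bp of 1.90% of optimal summits, against 0.061% of flanks, and of 0.187% of pooled summits below the optimal list, against 0.120% of flanks. ACGCAG, as its reverse complement, began at the base of the nearer pooled summit of cdc-48.2 itself. A match in these letters describes the sequence and does not show what binds there.

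Other genes of the pathway, and genes for other AAA ATPases, were looked up in 6 lists of named genes. The other AAA ATPases, which are relatives of CDC-48, make up 13 of the genes found and 8 of those with an optimal summit. Of 46 genes found, each counted once, 26 had an optimal summit in the promoter window, with a median signal of 141, against 17.5% of all genes, and 33 had a pooled one, against 42.3%. The name cdc-45 matched no gene. When a summit counted for the gene with the nearest 5' end alone, 20 of the 46 had an optimal one, against 13.2% of all genes under that rule. These lists were chosen with results of these data known, so the counts describe the genes and are not a test.

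Among the UBX domain genes, whose products bind CDC-48 and steer it to its targets, 3 of 6 had an optimal promoter peak. They were ubxn-2 (signal 240, rank 369), ubxn-1 (144, rank 1077) and ubxn-3 (138, rank 1158), which acts with UFD-1 and NPL-4 in taking the helicase off DNA. The ubxn-1 peak was nearer to tipn-1, at 133 bp. No optimal peak was in the windows of ubxn-4 or ubxn-5. Of 6 other partners, 1 had an optimal peak, the Aurora B kinase gene air-2 (121, rank 1409), and among those without were atx-3, a deubiquitylase that binds CDC-48, and chn-1, whose product works with UFD-2.

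Of 9 genes for degradation at the endoplasmic reticulum, 5 had an optimal promoter peak. The strongest were the ubiquitin-conjugating enzyme genes ubc-7 (signal 198, rank 569) and ubc-6 (155, rank 963), and the Derlin gene cup-2 (149, rank 1013), of which ubc-6 had aka-1 and cup-2 had tag-353 with a nearer 5' end. The second Derlin gene, der-2, and hrdl-1 had none. Of 9 genes for the replicative helicase and its removal, GINS genes among them, 7 had one. The strongest were tim-1 (255.9, rank 316), the GINS subunit gene psf-3 (177, rank 746) and tipn-1 (144, rank 1077), which shares its peak with ubxn-1. The GINS gene sld-5 and the ubiquitin ligase receptor gene lrr-1 had none.

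Of 13 genes for other AAA ATPases, 8 had an optimal promoter peak, led by the spastin gene spas-1 (signal 386, rank 92), vps-4 (299, rank 189) and atad-3 (198, rank 570). The relative cdc-48.3 and the fidgetin-like gene figl-1 had neither an optimal nor a pooled summit in the window. Of 4 genes for ubiquitin, a ubiquitin-like protein and ubiquitin activation, 3 had an optimal peak. They were the ubiquitin-like gene ubl-1 (303, rank 183), ubq-2 (162, rank 895) and ubq-1 (65.3, rank 3263). At the ubq-2 peak frg-1 had the nearer 5' end. The gene of the activating enzyme, uba-1, had a pooled summit alone, ranked 5136, not far below the end of the optimal list. The cdc-48.1 signal of 795 was above that of each gene in these lists. As cdc-48.1 was chosen for the strength of its peak, this is a description.

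**Figure D4:**
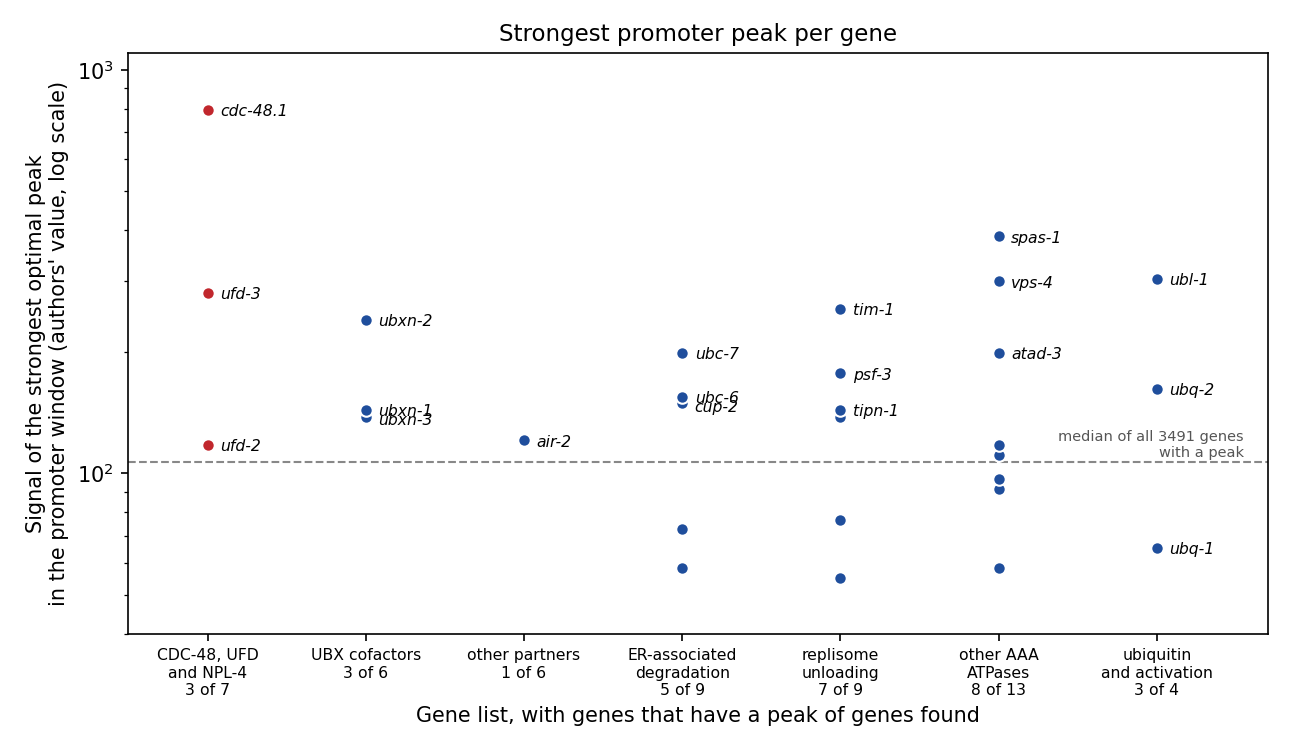
Signal of the strongest optimal peak in the promoter window (authors' value, log scale) for each gene that has one. The 7 genes described here are in red on the left and the 6 lists of other named genes in blue. Counts under each list are genes with a peak of genes found, ubxn-3 stands in the UBX and the replisome lists, and the dashed line is the median of 106 over all 3491 genes with a peak. cdc-48.1 at 795, which was chosen for the strength of its peak, stands above all other points, of which spas-1 at 386 is the highest.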

How the data were processed

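GFP-tagged MEP-1 was immunoprecipitated from L1 larvae in 2 biological replicates of 1 group, and fragments of 150 to 350 bp were sequenced, per the labels. The authors' deposited peak lists on ce11 were used: per the deposited file lists, replicate, pooled and optimal lists were called with a control, and the optimal list comes from an irreproducible discovery rate step. The sources used here name no aligner, caller or version. The signal and the −log10 q value per peak are as deposited, and summits follow the deposited offset from the peak start. The q value reached its ceiling in 56.5% of optimal peaks and was not used for ranking. The ce10 lists were not used.

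Summits were set against Ensembl release 115 models of WBcel235 and the RefSeq sequence of that build. Repeated words of 31 bases were counted on both strands. Coding and upstream sequences were aligned globally. Peaks were ranked by signal within each list. The counting was tested on simulated data. The named genes are all members, genes with a nearer 5' end, and per list up to 3 strongest and 2 without a peak, plus the 3 genes closest to cdc-48.1 in rank. The joined word of 8 bases was picked after values were seen. Members and lists were chosen with earlier results of these data known. Python 3.11.15, numpy 2.4.6, pandas 2.3.3 and Biopython 1.88 were used. Alternatives covered windows, 5' ends, overlap rules, gene models, thresholds and each replicate.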

Additional observations from a re-analysis of the deposited data

How the results depend on the processing

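The 3 genes with an optimal promoter peak, cdc-48.1, ufd-2 and ufd-3, were the same under every alternative run for that count. These were windows of 500 and 2000 bp, outermost or nearest 5' ends, any overlapping base, RefSeq gene models and the higher-signal 50% of peaks. Either replicate alone, and genes with under 50% repeated words (added after the data were seen), were the others. Several could not lower the count. A wider window can only add genes, and the repeat rule left out npl-4.1 and npl-4.2 alone, which had no call. The optimal peaks had already passed the authors' reproducibility step, and cdc-48.1 was chosen for its peak. Neither replicate has an optimal list. The calls used instead reached 18% (replicate 2) and 17.4% (replicate 1) of all genes, fewer than the full replicate lists. The 5 genes with a pooled summit were likewise the same under the alternatives run for them, with the same limits for the wider window and the repeat rule. The share of all genes moved from 11.4% to 22.3% for the optimal list, and from 34.7% to 51.8% for the pooled list. Without replicate 1 or without replicate 2 the counts were 3 and 5 again, and cdc-48.2 was the 1 gene with a summit in its body. The ufd-1 call was at percentile 44.8 of the pooled list, and at 13.9 without replicate 1 and 41.1 without replicate 2. The stronger cdc-48.2 promoter call was at 54.5, and at 70.9 without replicate 1 and 35.6 without replicate 2, where the calls are at different places. Of the 46 listed genes, from 20 to 27 had an optimal promoter peak, against 26. No paired analysis was possible because there is 1 group. Unknown depth limits what the low-ranked calls at cdc-48.2 and ufd-1 can show.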
